A study of Mus musculus with 46 samples.

Results

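The 34 genes described here are the classical cadherins and the protocadherins outside the large gene clusters, as carried by single hippocampal interneurons. They were chosen by symbol alone, as every gene of the count table named Cdh or Pcdh followed only by a number, from 22800 genes in all. Each of the 46 libraries was made from the cytosol of 1 neuron drawn into a patch pipette from mice of postnatal day 21 to 30, and each neuron was identified by its anatomy as an oriens-lacunosum moleculare (OLM) cell that passed the submitters' quality control. The cells came from an Htr3a Cre driver line (23 cells) and an Sst Cre driver line (23 cells), in which Cre recombinase is driven by a serotonin receptor gene or by the somatostatin gene. The labels name no other allele or treatment and tie no cell to an animal, so each line counts as 1 sample and the lines are set side by side without a test. SDs describe the cells sampled. The binomial intervals of shares treat cells as independent, which cannot be checked without the animals, so they leave out differences between animals. The Poisson intervals of summed reads cover counting error only.

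Cadherins are calcium-dependent adhesion proteins that bind across the gap between neighbouring cells. Classical cadherins of type I and type II hold on to the actin skeleton through catenins, and in the brain they help to decide which axon contacts which dendrite. The protocadherins of the delta groups adhere more weakly, have other cytoplasmic tails, and act in axon growth, dendrite shape and synapse number. OLM cells sit in stratum oriens of the hippocampus and send their axon to the far dendrites of pyramidal cells. The symbols also take in genes that are neither classical cadherins nor delta protocadherins: Cdh13, which is held in the membrane by a lipid anchor and has no cytoplasmic tail, the epithelial genes Cdh16, Cdh17 and Cdh26, and the hair-cell tip-link pair Cdh23 and Pcdh15.

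All 46 libraries carried Sst, the somatostatin transcript, at 1274 to 103853 reads scaled to 1000000 per library (CPM). Library sizes ran from 3391829 to 31386369 reads, and 3225 to 12693 genes had a read in a cell. Gad1, the enzyme that makes GABA, had only 4 and 24 reads in replicates 4 and 20 of the Htr3a line, while the median of all 46 cells was 1066 CPM. Htr3a line replicate 10 had the most genes with a read (12693) and 121 CPM of Gad1, and Htr3a line replicate 11 held 104 CPM of Gad1. Replicates 4 and 20, for their few Gad1 reads, and 10, for its number of genes, were singled out after their values were seen. Some results, mainly differences between the lines, are also given without these 3 cells, while ranges and sums include them. Replicate 11 was kept throughout. Markers of other cell types were read in both lines. The summed level of 9 microglial genes ranged from 0 to 8443 CPM in Htr3a-line cells and from 0.0536 to 10876 CPM in Sst-line cells, and that of 8 oligodendrocyte genes, Cldn11 and Opalin at 0 in all cells, from 0.144 to 13314 CPM and from 0.473 to 5318 CPM.

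Of the 34 genes, 28 had a read in at least 1 cell and 16 had reads in at least 12 of the 46 cells. The share with reads in at least 12 cells was 47.1%, beside 43.9% of all 22800 genes. The 16 were Cdh2, Cdh4, Cdh8, Cdh9, Cdh10, Cdh11 and Cdh13, with Pcdh1, Pcdh7, Pcdh8, Pcdh9, Pcdh10, Pcdh15, Pcdh17, Pcdh18 and Pcdh19. Every delta protocadherin that the symbols take was among them (3 of 3 delta-1 and 5 of 5 delta-2 genes), against 2 of 5 type I and 4 of 13 type II cadherins. The median length of annotated exons was 8.85 kilobases among the 16 and 4.43 kilobases among the other members, and the part of length in these counts was not tested. The remaining 12 genes with reads were met in 1 to 10 cells. No read was found for Cdh1, Cdh3, Cdh16, Cdh17, Cdh18 and Cdh26, and 0 of 46 cells allows a share of up to 6.52% of cells with a read.

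**Figure D1:**
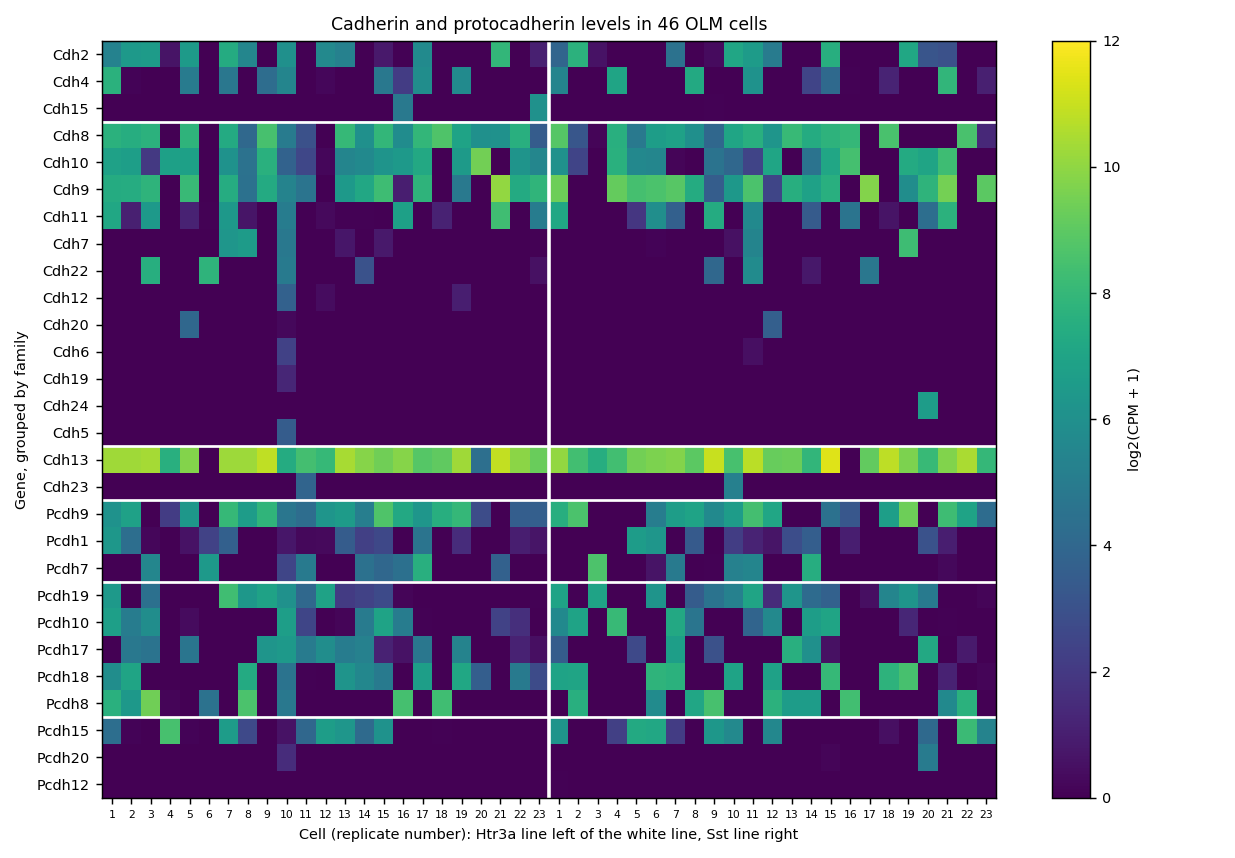
Level of the 28 genes with a read, as log2(CPM + 1) by colour, in rows grouped by family, across 46 cells in columns (Htr3a line on the left of the white line, Sst line on the right). The Cdh13 row is filled in 44 of 46 cells, the rows of Cdh8, Cdh9, Cdh10 and Pcdh9 in 36 to 39, and 10 rows are filled in only 1 to 3 cells.

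Cdh13, which encodes T-cadherin, was the member read in most cells. It had reads in 44 of 46 cells (95.7%, exact Clopper-Pearson 95% interval 85.2 to 99.5), 22 in each line, and every one of these held at least 10 CPM. In the Htr3a line its level ran from 0 to 1891 CPM (median 890), and in the Sst line from 0 to 2686 CPM (median 632). The lines overlapped over most of their range. On the log2(CPM + 1) scale the Htr3a line had a mean of 8.94 ± 2.43 (SD between 23 cells) and the Sst line of 8.96 ± 2.23 (23 cells). Differences are given throughout as Sst line minus Htr3a line, which was 0.02 for Cdh13. Without Htr3a line replicates 4, 10 and 20 it was -0.35, which is small beside the SDs. The gene lies on chromosome 8 (118283733 to 119324921, GRCm38). The 2 cells without a Cdh13 read were Htr3a line replicate 6, with 3350 genes read, and Sst line replicate 16, with 4225, and these cells had reads of 5 and 7 other members.

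The type II cadherins Cdh8, Cdh9 and Cdh10 were the next most widely read cadherins. These are classical cadherins whose adhesive contacts sort neurons by the members they share, and Cdh9 is known in the hippocampus for its part at the mossy fibre synapse. Cdh8 (chromosome 8, 99024471 to 99416471) was read in 39 cells (84.8%, 71.1 to 93.7), 35 of them at 10 CPM or more. Htr3a-line cells ran from 0 to 420 CPM (median 124) and Sst-line cells from 0 to 460 CPM (median 102). Cdh9 was read in 36 cells (78.3%, 63.6 to 89.1), 18 in each line, and ran from 0 to 1072 CPM in the first (median 143) and from 0 to 877 CPM in the second (median 184). Its exons overlap those of Gm49127 on the other strand over 6.33% of their bases. Cdh10 was read in 36 cells as well, 20 of the Htr3a line and 16 of the Sst line, at medians of 67.7 CPM (0 to 688) and 22.5 CPM (0 to 351). For each of the 3 genes the cells of the lines overlapped, and cells without a read stood beside cells above 300 CPM in both. For Cdh10 in the Htr3a line, the only cell above 300 CPM was replicate 20, at 688 CPM. It is 1 of the 3 cells singled out above, and without it no Htr3a-line cell lay above 300 CPM.

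Cdh9 and Cdh10 are neighbours on chromosome 15 in a stretch that holds little else. From the start of Cdh6 (13028701) to the end of Cdh18 (23474418) the GENCODE M21 annotation of GRCm38 lists 6 protein-coding genes, of which 5 are type II cadherins (Cdh6, Cdh9, Cdh10, Cdh12 and Cdh18, in this order) and 1 is Acot10, which lies within Cdh12. Reads of the 5 were spread unevenly: Cdh9 and Cdh10 in 36 cells each, Cdh12 in 3 cells, Cdh6 in 2 and Cdh18 in 0. Cdh9 and Cdh10 shared 31 cells, and 5 cells had reads of neither. The 250 bases before the RefSeq start (GRCm38.p6) of 4 of these neighbours are shown, because they lie side by side and differ in how many cells were read. They are written 5′ to 3′ on the gene's own strand (plus for all 4), with each CG dinucleotide, the pair at which vertebrate DNA is methylated, in capitals.
Cdh9 (chr15:16728665-16728914): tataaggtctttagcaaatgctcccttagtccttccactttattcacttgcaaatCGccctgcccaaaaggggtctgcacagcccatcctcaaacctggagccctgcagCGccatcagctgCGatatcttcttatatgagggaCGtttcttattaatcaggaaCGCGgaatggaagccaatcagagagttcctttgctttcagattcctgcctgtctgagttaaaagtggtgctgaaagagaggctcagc
Cdh10 (chr15:18820079-18820328): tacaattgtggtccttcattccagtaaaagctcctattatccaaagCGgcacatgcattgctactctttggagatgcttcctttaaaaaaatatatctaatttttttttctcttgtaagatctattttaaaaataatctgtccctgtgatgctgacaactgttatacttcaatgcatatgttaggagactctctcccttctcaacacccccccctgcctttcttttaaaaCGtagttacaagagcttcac
Cdh12 (chr15:21111202-21111451): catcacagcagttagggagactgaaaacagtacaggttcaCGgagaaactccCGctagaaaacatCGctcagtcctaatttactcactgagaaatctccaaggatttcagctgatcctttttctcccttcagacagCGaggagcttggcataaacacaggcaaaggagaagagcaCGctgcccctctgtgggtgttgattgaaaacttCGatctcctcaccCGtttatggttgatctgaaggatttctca
Cdh18 (chr15:23036213-23036462): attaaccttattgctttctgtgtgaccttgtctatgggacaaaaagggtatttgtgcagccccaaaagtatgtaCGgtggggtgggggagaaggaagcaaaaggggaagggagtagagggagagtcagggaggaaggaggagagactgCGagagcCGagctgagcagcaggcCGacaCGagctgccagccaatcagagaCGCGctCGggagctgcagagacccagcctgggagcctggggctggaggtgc
The RefSeq starts of these 4 genes lie inside the genes as GENCODE M21 draws them. GENCODE begins Cdh10 at 18818947, Cdh12 at 20449265 and Cdh18 at 22549022, before their windows, and the window of Cdh9 spans its GENCODE start (16728756). These stretches therefore precede the RefSeq start and not the outermost GENCODE start. The windows of the widely read Cdh9 and Cdh10 held 6 and 2 CG dinucleotides, and those of the sparse Cdh12 and Cdh18 held 7 and 8. The window of Cdh6, read in 2 cells, lies on the minus strand, is not printed and held 6, as many as that of Cdh9. Over all 32851 promoter windows of this length in the RefSeq table the median was 6, and 92.1% held at least 1. Of the 34 symbols, 22 matched the table. Windows of the other widely read members held 6 (Pcdh15) to 23 (Pcdh18), and those of members read in 10 cells or fewer held 0 (Cdh26) to 30 (Cdh22), so the counts of both overlap.

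Cdh11, another type II cadherin, was read in 26 cells (56.5%, 41.1 to 71.1), but only 15 of these held 10 CPM or more. Its median over cells with a read was 21.2 CPM, and the highest cell held 322 CPM. Of the type I genes, Cdh2 encodes N-cadherin, the main classical cadherin of synapses, and lies on chromosome 18. Cdh2 was read in 27 cells (58.7%, 43.2 to 73.0), 19 of them at 10 CPM or more, with medians over all cells of 1.11 CPM in the Htr3a line (0 to 249) and 0.264 CPM in the Sst line (0 to 206). Cdh4, which encodes R-cadherin, was read in 21 cells, at a median of 27.2 CPM where it was read and up to 234 CPM. Cdh2 was thus at or above 10 CPM in fewer cells (19) than it was below (27), and Cdh4 in 14. Cdh1, the E-cadherin gene of epithelia, and Cdh3 had no read.

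Among the delta-1 protocadherins, Pcdh9 was read in the most cells, then Pcdh1 and Pcdh7, and their medians where read were 14.5, 0.444 and 2.75 CPM per kilobase of exon. Pcdh9 (chromosome 14, 93013410 to 93890679) was read in 36 cells (78.3%, 63.6 to 89.1), and 33 of these held 10 CPM or more. Htr3a-line cells ran from 0 to 409 CPM (median 74.9) and Sst-line cells from 0 to 663 CPM (median 50.2). Pcdh1 was read in 27 cells, yet only 8 of these reached 10 CPM, and its median where read was 3.90 CPM. Pcdh7 was read in fewer cells, 17, but 13 of them reached 10 CPM, and its median where read was 29.2 CPM. Of the annotated exon bases of Pcdh7, 21.1% are also exons of 4932441J04Rik on the other strand, and without a stated strand setting reads there cannot be told apart.

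The delta-2 protocadherins were each read in 19 to 30 cells, and no cell lacked all 5. Their cytoplasmic tails can bind the WAVE complex, which drives actin branching. Pcdh8, whose protein is known as arcadlin and is induced by neuronal activity, was either high or missing: 19 cells had a read, 18 of them held at least 10 CPM, and the median where read was 192 CPM. The highest cells were Htr3a line replicate 3 with 683 CPM and, in the Sst line, replicate 9 with 369 CPM. Pcdh18 had the same shape, with 20 of 24 positive cells at 10 CPM or more and a median where read of 110 CPM. Pcdh19, an X-linked gene whose mutation causes an epilepsy of females, was read in the most cells of the group, 30 (65.2%, 49.8 to 78.6), with 21 cells at 10 CPM or more and a median where read of 26.5 CPM. Per kilobase of exon its median where read was 2.53 CPM, beside 42.3 for Pcdh8 and 20.4 for Pcdh18. Pcdh10 and Pcdh17 were each read in 24 cells, of which 16 reached 10 CPM, at medians of 31.9 and 26.4 CPM where read. The exons of Pcdh8 overlap Gm9748 on the other strand over 9.61% of their bases.

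**Figure D2:**
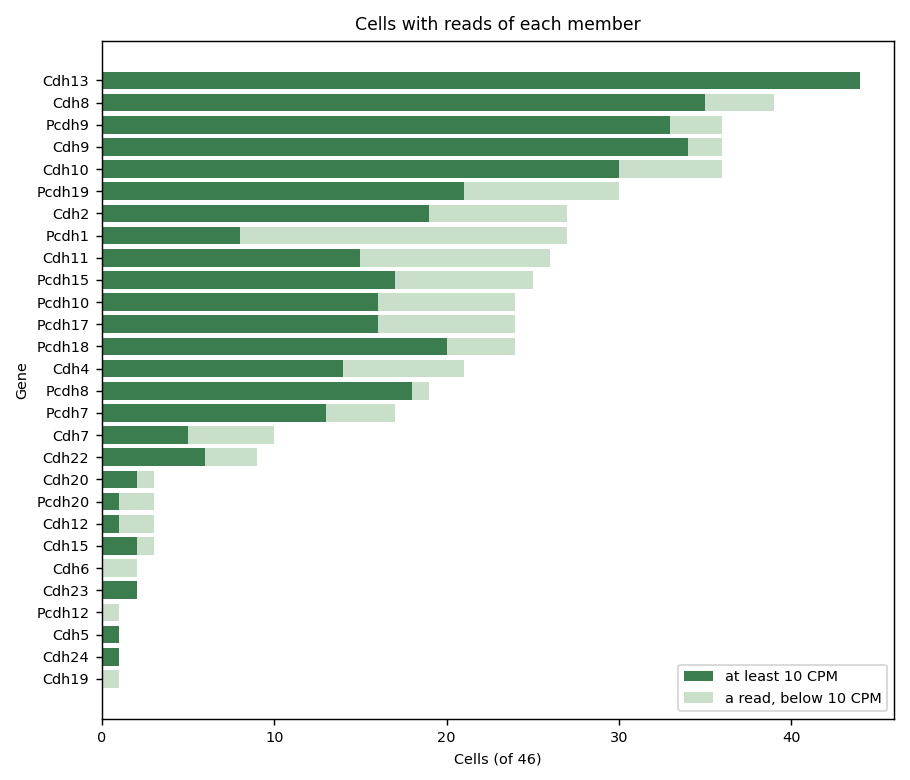
Number of cells, of 46, with at least 10 CPM (dark) or with a read but less than 10 CPM (light), for each of the 28 genes with a read. Pcdh8 (18 dark, 1 light) and Pcdh1 (8 dark, 19 light) show that the share of cells with a read and the level do not go together for every gene.

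Pcdh15 was read in 25 cells, 17 of them at 10 CPM or more, with medians over all cells of 0.0703 CPM in the Htr3a line (0 to 361) and 0.422 CPM in the Sst line (0 to 288). In the brain this gene is known from oligodendrocyte precursors, and it is also needed in hair cells. The highest Pcdh15 level, 361 CPM, was in Htr3a line replicate 4, which also held the highest sums of oligodendrocyte genes (13314 CPM) and astrocyte genes (1383 CPM) of all cells. Of 6 precursor markers (Pdgfra, Cspg4, Olig1, Olig2, Sox10 and Gpr17), all 6 were read somewhere, each in 2 to 6 cells, and their sum ranged from 0 to 140 CPM in Htr3a-line cells and from 0 to 154 CPM in Sst-line cells, with a median of 0 in both. Across the 46 cells Pcdh15 and that sum had a Pearson correlation of -0.17 on the log2(CPM + 1) scale. With the oligodendrocyte sum it was 0.19 (Spearman 0.007), and with the astrocyte sum 0.04 (Spearman -0.006). In Htr3a line replicate 4 the precursor sum was 0.

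The 12 genes read in 1 to 10 cells often had most of their reads in a single cell. Cdh7 was read in 10 cells (5 at 10 CPM or more), and Sst line replicate 19 held 90.9% of its Sst-line reads. Cdh22 was read in 9 cells (6 at 10 CPM or more), with 223 CPM in Htr3a line replicate 6 and 182 CPM in replicate 3. Cdh24 had 98.4 CPM in Sst line replicate 20 and no read in any other cell. The other 9 (Cdh5, Cdh6, Cdh12, Cdh15, Cdh19, Cdh20, Cdh23, Pcdh12 and Pcdh20) were met in 1 to 3 cells each. Htr3a line replicate 10 held reads of 6 of these 9 (Cdh5, Cdh6, Cdh12, Cdh19, Cdh20 and Pcdh20), and without it Cdh5, the cadherin of vascular endothelium, and Cdh19, a cadherin of glia, would have had none. Its Cdh5 level was 10.1 CPM beside 7.74 CPM summed over 8 vascular markers, of which Tek and Ly6c1 were at 0 in all 46 cells. That cell's precursor markers summed to 98.0 CPM and its 8 glutamatergic markers to 250.1 CPM, and their part in its long list of members was not tested.

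Levels of different genes are compared per kilobase, here of the annotated exons merged per gene, for the 7 highest of the 16 widely read genes. Where read, the median was 70.8 CPM per kilobase for Cdh13, 50.5 for Cdh9, 42.3 for Pcdh8, 21.03 for Cdh8, 20.4 for Pcdh18, 14.5 for Pcdh9 and 6.98 for Cdh10. Each step between neighbours in this order, on the log2 scale, was smaller than 1.29, the SD of Cdh13 between cells with a read, which was the smallest SD among the 7. Among rarely read genes, Cdh24 in its 1 cell (28.2), Cdh15 (8.50) and Cdh22 (7.10) fell within the range of these 7. With the longest annotated transcript as the length the values were 174 for Cdh13, 50.5 for Cdh9, 42.3 for Pcdh8, 35.4 for Cdh8, 21.2 for Pcdh18, 18.6 for Cdh10 and 15.1 for Pcdh9. By the longest transcript, the step from Cdh13 to Cdh9 was larger than 1.29 on the log2 scale. Over merged exons Cdh13 was the highest member in 22 cells and Cdh9 in 16. Over the longest transcripts Cdh13 was the highest in 37 cells and Cdh9 in 5, so which of these genes led a cell turned on the length used. The remaining 8 cells over merged exons were led by Pcdh8 (3 cells), Pcdh9 (2) and, in 1 cell each, Cdh10, Cdh22 and Pcdh7.

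No pair of cells had the same combination. A cell held reads of 4 to 24 members, with a median of 12, and the 46 sets of members were all different, also when only levels of at least 10 CPM were counted (median 8, range 3 to 17). Reads of Cdh symbols made up a median of 6 members per cell and reads of Pcdh symbols 5. The 8 delta protocadherins made 39 different sets in 46 cells, of which 33 were seen once, with a median of 5 per cell and a range of 1 to 8. The 4 widely read type II cadherins, which allow far fewer sets, made 14, and Cdh8, Cdh9, Cdh10 and Cdh11 were read together in 18 cells (11 of the Htr3a line and 7 of the Sst line). The next most frequent type II set was Cdh8, Cdh9 and Cdh10 without Cdh11, in 10 cells. The set of 5 genes read in the most cells (Cdh13, Cdh8, Cdh9, Cdh10 and Pcdh9) was complete in 24 cells, or in 19 at 10 CPM or more. It was absent altogether in 1 cell, Htr3a line replicate 6, which held reads of Cdh11, Cdh22, Pcdh1, Pcdh7 and Pcdh8. A transcript can be present in a cell and not be caught, so these sets describe reads.

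All 36 cells with Cdh9 reads also had reads of Cdh13, which only 2 cells lacked. All 24 cells with Pcdh18 reads also had Pcdh9 reads, while 12 of the 22 cells without Pcdh18 had Pcdh9. The most shared pair was Cdh8 and Cdh13, read together in 38 cells. The least shared pair relative to the cells of either was Cdh4 and Pcdh7, with 7 cells of both, 14 of Cdh4 alone and 10 of Pcdh7 alone. Across the 46 cells the Pearson correlation of log2(CPM + 1) ranged over the 120 pairs from -0.31 (Cdh9 with Pcdh8) to 0.48 (Pcdh18 with Pcdh9), with a median of 0.10. Over all 46 cells no pair reached 0.5 in size. By line, the correlation of Cdh13 with Cdh9 was 0.63 in the Htr3a line and 0.30 in the Sst line, and that of Pcdh18 with Pcdh9 was 0.34 and 0.57, pairs chosen after their values were seen. Each cell's depth and number of genes read enter both values of a pair.

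**Figure D3:**
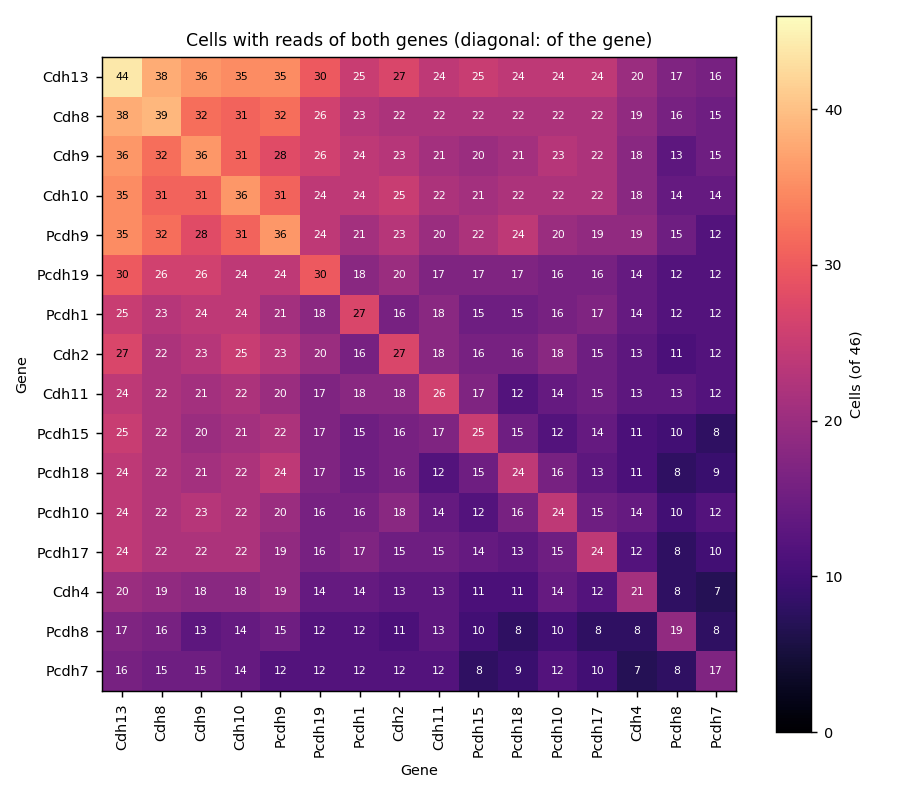
Number of cells, of 46, with reads of both genes of a pair, for the 16 genes read in at least 12 cells, ordered by that number, with the cells of each gene on the diagonal. Cdh13 and Cdh8 share 38 cells, and Pcdh18 and Pcdh9 share 24, which are all cells with Pcdh18.

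How many members a cell held followed how many genes it held. Across 46 cells the number of members correlated with the number of genes read with Pearson's r of 0.85 (Spearman 0.79), and within lines r was 0.90 in the Htr3a line and 0.71 in the Sst line (23 cells each). Without Htr3a line replicate 10, which lies far from the rest, r was 0.80 over all cells and 0.86 in the Htr3a line. Without the 2 cells farthest from the median number of genes, r was 0.78 over all cells, 0.84 in the Htr3a line and 0.62 in the Sst line. With the number of reads, r was 0.30. Both measures come from the same library. Htr3a-line cells held a median of 12 members (5 to 24) and Sst-line cells 9 (4 to 15), and after thinning every cell to 3000000 reads the medians were 12 and 9. The median numbers of all genes read differed in the same direction, 8169 and 6569, and per 1000 genes read the medians were 1.48 members in the Htr3a line (1.04 to 1.89) and 1.56 in the Sst line (0.927 to 2.35). The ranges of the lines overlapped on every one of these measures.

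**Figure D4:**
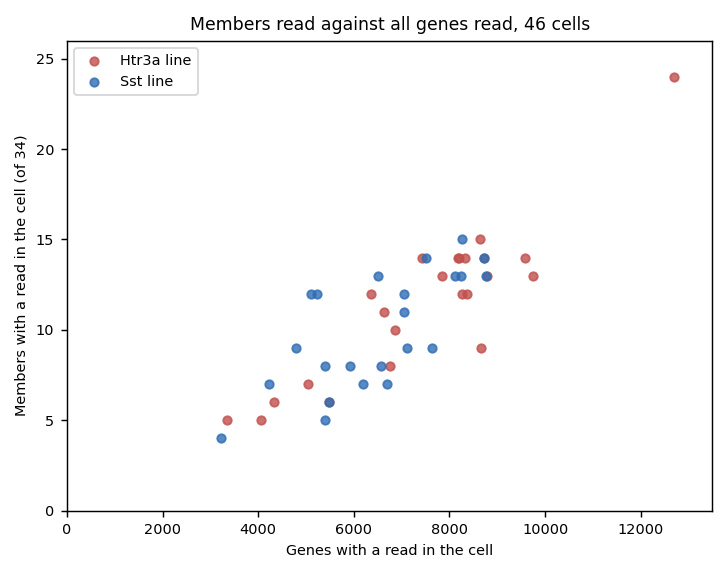
Number of members with a read against the number of all genes with a read, 1 point per cell, coloured by driver line. The points rise together in both lines, and Htr3a line replicate 10 (12693 genes, 24 members) lies at the upper right.

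Each of the 16 widely read genes had cells with and without a read in both driver lines. Of these genes, 12 were read in more Htr3a-line than Sst-line cells, 2 in more Sst-line cells and 2 in as many, beside 63.8% and 19.5% of the 10004 genes read in at least 12 cells. The 2 with more Sst-line cells were Pcdh19 (17 against 13 cells) and Pcdh8 (10 against 9). The largest gap in cells was that of Pcdh17, read in 15 cells of the Htr3a line (65.2%, 42.7 to 83.6) and in 9 of the Sst line (39.1%, 19.7 to 61.5).

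Levels were compared by the mean log2(CPM + 1) of each line. Of the 18 members with a mean of at least 0.5, which are the 16 above with Cdh7 and Cdh22, 10 (55.6%) had a lower and 8 a higher mean among Sst-line cells, beside 62.6% lower of all 11196 genes of that level. For 10 of the 16 widely read genes the sign of the difference changed under at least 1 other setting. The median difference of the 18 members was -0.14, beside -0.22 over the 11196 genes. None of the 18 was higher in the Sst line by 1 or more (background 4.24% of genes), and 2 were lower by 1 or more (background 14.9%). The 2 genes lower by 1 or more were Cdh10 and Pcdh17. Cdh10 had a mean of 4.90 ± 2.77 (SD, 23 cells) in Htr3a-line cells and 3.84 ± 3.24 (23 cells) in Sst-line cells, a difference of -1.07. Reads summed over a line gave the other direction, with 80.9 CPM (exact Poisson 95% interval 79.9 to 81.8) for the Sst line and 69.3 CPM (68.4 to 70.2) for the Htr3a line. That log2 ratio of 0.22 became -0.08 without Sst line replicate 16, and the mean difference was -0.80 without Htr3a line replicates 4, 10 and 20. Pcdh17 ran from 0 to 85.5 CPM in the Htr3a line (median 1.22) and from 0 to 186 CPM in the Sst line (median 0), so the lines overlapped. Pcdh17 had a mean of 2.67 ± 2.61 (23 cells) and 1.66 ± 2.67 (23 cells) in the same order, a difference of -1.01. Without Htr3a line replicates 4, 10 and 20 the Pcdh17 difference was -1.09. Its summed CPM was 23.2 and 17.3, a log2 ratio of -0.41, and the Sst-line value was 11.4 CPM without Sst line replicate 20, which makes the ratio -0.97. Both mean differences are smaller than the SDs between cells, and they lie close to 1: leaving out any 1 of 17 cells for Cdh10, or any 1 of 27 for Pcdh17, brought them below it.

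Of the 16 widely read genes, Cdh9 and Pcdh18 had the largest log2 ratios of summed CPM toward the Sst line. Cdh4, Cdh10, Cdh11, Pcdh7, Pcdh9, Pcdh10 and Pcdh15 also summed higher there, and the other widely read genes summed lower. Among rarely read genes, Cdh24 (2.37) and Cdh7 (1.36) had ratios above both, and Pcdh20 (1.06) had one above that of Cdh9. Cdh24 had reads in Sst line replicate 20 alone. Sst line replicate 19 held 90.9% of the Sst-line reads of Cdh7, and replicate 20 held 99.8% of those of Pcdh20. The rarely read Cdh15 (-2.41), Cdh22 (-1.87), Cdh5, Cdh6, Cdh12 and Cdh19 summed lower in the Sst line. No share of all genes was computed for summed ratios. Cdh9 summed to 147.2 CPM (145.9 to 148.5) over Htr3a-line cells and 270.9 CPM (269.2 to 272.5) over Sst-line cells. The log2 ratio of 0.88 lay between 0.69 and 1.20 with each cell left out. Its mean difference was 0.69, and 0.17 without Htr3a line replicates 4, 10 and 20, of which replicates 4 and 20 held no Cdh9 read. Pcdh18 ran from 0 to 361 CPM in the Sst line (median 0) and from 0 to 161 CPM in the Htr3a line (median 5.61). Pcdh18 summed to 80.3 CPM (79.4 to 81.2) and 34.8 CPM (34.2 to 35.5), a log2 ratio of 1.18 (0.80 to 1.35), while its mean difference was 0.10 and 13 cells of the Htr3a line had a read against 11 of the Sst line. Where it was read, the median was 128 CPM among Sst-line and 45.4 CPM among Htr3a-line cells, with an SD of 2.46 on the log2 scale over all these cells. Its highest cell, Sst line replicate 19, held 28.3% of the line's Pcdh18 reads. The summed values of Pcdh7 rested on single cells. Its Htr3a-line sum of 20.8 CPM was 11.7 CPM when replicate 17 was left out. Its Sst-line sum of 26.6 CPM was 7.74 CPM when replicate 3 was left out.

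**Figure D5:**
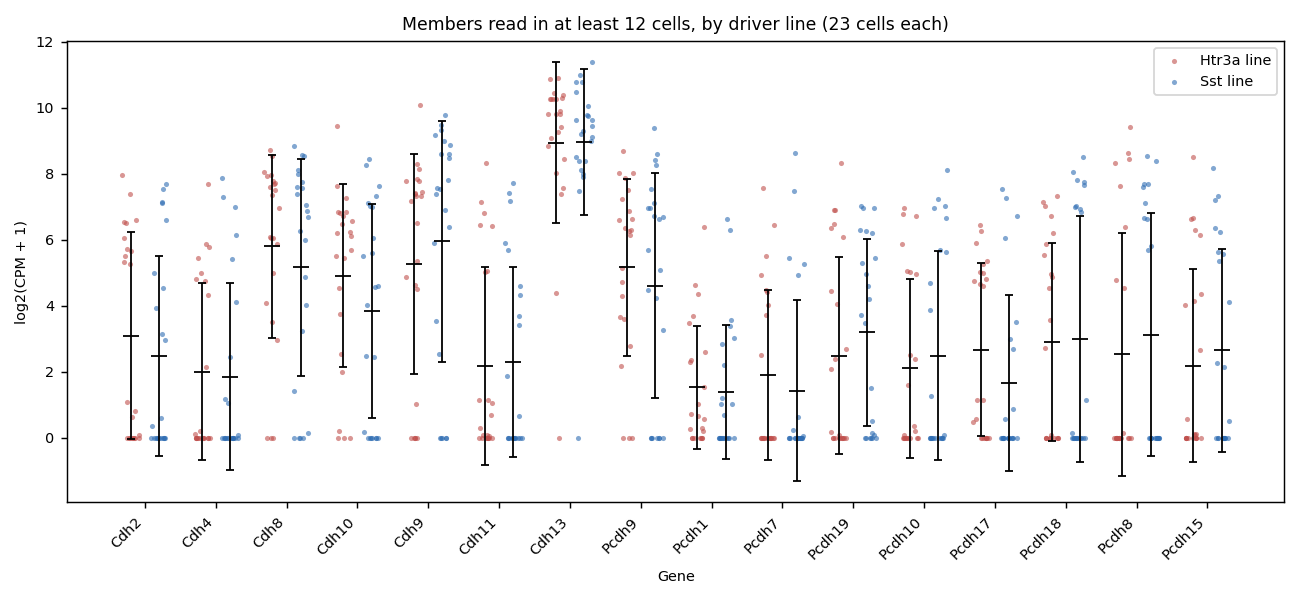
Level of the 16 genes read in at least 12 cells, as log2(CPM + 1), with 1 point per cell, Htr3a line in red and Sst line in blue (23 cells each). Bars give the mean and SD between cells. For every gene the points of the lines overlap, and apart from Cdh13 a group of cells lies at 0 in both lines.

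Cdh9 and Cdh13 were also compared within each cell. The log2(CPM + 1) of Cdh9 less that of Cdh13, which is read here only between lines since the genes differ in length, had SDs of 2.61 (Htr3a line) and 3.66 (Sst line) between 23 cells each. Its mean was 0.67 higher in the Sst line, or 0.53 without Htr3a line replicates 4, 10 and 20. Per kilobase of merged exons Cdh9 lay above Cdh13 in 5 cells of the Htr3a line (21.7%, 7.46 to 43.7) and in 11 of the Sst line (47.8%, 26.8 to 69.4). Over the longest transcripts these counts were 0 and 5 cells. These counts describe the 23 cells of each line.

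The partners of these proteins ranged from genes read in all 46 cells to genes read in 1. Of 9 genes of the catenin group, partners of classical cadherins, 5 were read in at least 12 cells. They were led by Ctnnd2, delta-catenin, in 46 cells, Ctnnb1, beta-catenin, in 37 and Pkp4 in 33. Of the 8 catenins above the minimum mean, 1 was higher in the Sst line by 1 or more (Pkp4, 1.32) and 3 were lower (median -0.65). The shares of all 11196 genes past this size, 4.24% higher and 14.9% lower, are the background for each list. For reads in at least 12 cells, the background is 43.9% of all 22800 genes. Of 9 genes of the WAVE complex, 8 were read in at least 12 cells, with Brk1 and Cyfip2 in 44 and Nckap1 in 43, and 2 of the 8 above the minimum mean were lower in the Sst line by 1 or more. All 6 genes of the proteases that cut cadherins were read in at least 12 cells, with Psenen and Ncstn, both parts of gamma-secretase, in 41 and 39, and 1 was lower by 1 or more. Of 14 other genes of the cadherin superfamily, 5 were read in at least 12 cells, among them the calsyntenins Clstn1 in 46 and Clstn3 in 42 cells and the flamingo-type cadherin Celsr2 in 35. Of the 8 above the minimum mean, 2 were higher in the Sst line by 1 or more and 0 lower, beside the same 4.24% and 14.9% of all genes.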

How the data were processed

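RNA sequencing was done on 46 single cells. The authors deposited raw counts, once by symbol (22800 genes) and once by Ensembl identifier (22880 genes). The submitters' processing notes list Trimmomatic, STAR, featureCounts and GRCm38, and for versions, annotation and strand the sources used here give nothing. The third deposited table is a normalized signal: every non-zero value (100%) equalled the count over a factor fixed for its cell (0.144 to 2.09), to within 0.1%. The origin of those factors is not stated. Molecular identifiers are not named, so Poisson intervals cover counting error only.

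Values come from the counts by symbol. All 34 members matched GENCODE M21 by symbol and had identical counts in both count tables. None of the 1035 pairs of libraries was identical. Counts were scaled to 1000000 per cell (CPM) and given as log2(CPM + 1). Exact Clopper-Pearson and Poisson 95% intervals, and 3 cells as the limit for a share of 0, were computed with scipy 1.17.1 in python 3.11.15. Every member is named, and of each partner list the genes with the most cells read (up to 3), apart from 1 gene that is not reported here. Alternatives were a minimum of 5 reads or 10 CPM, thinning, a pseudocount of 10, factors from edgeR 4.0.16 and DESeq2 1.42.0, the other deposited tables, other minimum means, summed CPM and leaving out each cell. Leaving out 3 cells together and the transcript lengths were added after seeing the data. The members and lists were chosen with earlier results of these data known. The calculations were tested on simulated counts.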

Additional observations from a re-analysis of the deposited data

How the results depend on the processing

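The number of members read per cell was a median of 12, and 10.5, 8 and 11 with 5 reads, with 10 CPM and after thinning. The order of the lines held in each of these (11 and 9, 9 and 8, 12 and 9 for the Htr3a and Sst lines). The number of members read in at least 12 cells was 16, and 15 at 10 CPM. At 10 CPM the share of cells moved outside the 95% interval for 8 genes (Cdh2, Cdh4, Cdh11, Pcdh1, Pcdh10, Pcdh15, Pcdh17 and Pcdh19). The 2 members lower in the Sst line by at least 1 were 0 with a pseudocount of 10 and 1 with DESeq2 factors, on the deposited normalized scale and without Htr3a line replicates 4, 10 and 20 together. With each cell left out in turn they were 0 to 2, and the cause was not tested. Both went below 1 in size without any 1 of Htr3a line replicates 2, 5, 9, 17 and 19 and Sst line replicates 3, 8, 17, 18, 22 and 23. Cdh10 alone did so without Htr3a line replicates 1, 4, 16 and 20 or Sst line replicates 7 and 13, and Pcdh17 alone without Htr3a line replicates 3, 10, 11, 12, 13 and 14 or Sst line replicates 2, 4, 6, 10, 11, 12, 15, 16, 19 and 21. The difference of Cdh10 was 0.22 as a log2 ratio of summed CPM, against -1.07. The median difference of the members lay between -0.23 and -0.002 under these settings, between -0.24 and 0.08 with each cell left out, and at 0.10 with a minimum mean of 2 and 0 with no minimum. The median over all genes was -0.06 with a pseudocount of 10 and -0.32 without the 3 cells. The differences of Cdh4, Cdh11, Cdh13, Pcdh1 and Pcdh18 changed sign under a scaling, a pseudocount or a left-out cell, and with summed CPM those of Cdh10, Pcdh7 (0.34), Pcdh8 (-0.03), Pcdh9 (0.44) and Pcdh19 (-0.04) did so too. No paired analysis was possible because the labels give the cells no shared numbers. Genes at a few CPM can be missed in a cell, so a cell without a read is not a cell without the transcript.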

Other observations

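Cells with more Pcdh8 tended to hold less somatostatin transcript. Across 46 cells its log2(CPM + 1) had a Pearson correlation of -0.52 with that of Sst (Spearman -0.52), of -0.46 in the Htr3a line and -0.62 in the Sst line (23 cells each), and of -0.56 without Htr3a line replicates 4, 10 and 20. Both values of a cell are parts of the same total, and the relation was chosen after 128 correlations of members with marker sums had been computed, so it is given as a description. The summed OLM genes, in which Sst takes the largest part, gave -0.48. None of the other 15 widely read members correlated with the OLM sum as strongly in either direction.

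Pcdh11x, a delta-1 protocadherin that the symbol rule does not take because its name ends in a letter, was read in 7 cells, 3 of the Htr3a line and 4 of the Sst line, and reached 265 CPM in the highest. The correlations of the 16 widely read members with the summed markers of microglia, oligodendrocytes, their precursors, astrocytes, vessels and glutamatergic cells ranged from -0.40 (Pcdh18 with oligodendrocyte genes) to 0.37 (Pcdh8 with precursor genes) over 96 values, with a median of 0.07.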
